A study of Homo sapiens with 6 samples.

Results

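The genes that license replication origins, build and run the replication fork and supply its nucleotides were followed in HGC-27 cells, an undifferentiated human gastric cancer line, with and without the peptide GLUP. The list holds 47 genes in 10 roles, taken by symbol, and all 47 were found among the 62443 genes of the deposited table. Of them, 42 averaged 1 FPKM or more across all 6 libraries and were tested, as were 7406 genes in all. FPKM counts fragments relative to gene length and library total, so that levels can be set side by side between genes. ORC1, POLA1, PRIM2, POLE and UHRF1 were below that minimum and are given by their values.

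Total RNA was sequenced from 3 control libraries (Con) and 3 libraries of cells given GLUP, a cyclised peptide built on the TEAD4-binding motif of VGLL4 and designed to link molecules of the transcription factor TEAD4. The labels give no treatment for Con, whereas according to the methods these cells received the buffer in which the peptide is kept. The labels give neither dose nor time. For the RNA sequencing, the text of the study states the same dose of GLUP each time but differing lengths of treatment. Nothing in the labels says that the libraries of a group came from separate cultures, so that p-values measure only the spread between these libraries, which may be technical, although the methods speak of biological replicates of the RNA. In bulk RNA, fewer cells in S phase and less RNA of a gene per cell cannot be told apart.

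A cell makes its origins ready for replication before S phase. The origin recognition complex (ORC), CDC6 and CDT1 load the ring of MCM2 to MCM7 onto DNA, and geminin, the product of GMNN, holds CDT1 back afterwards. In S phase CDC45 and the GINS proteins turn the MCM ring into a working helicase, the RFC clamp loader places the sliding clamp PCNA, and the polymerases copy both strands while RPA coats the exposed single strand. FEN1 and LIG1 join the fragments of the lagging strand, and ribonucleotide reductase (RRM1 and RRM2), thymidylate synthase (TYMS) and thymidine kinase (TK1) supply the nucleotides. Many of these genes are known targets of the E2F factors and are used as signs of dividing cells.

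The 6 libraries were alike in total, between 909735 and 965147 FPKM, with 20061 to 21498 genes above 0 and 21.9% to 29.7% of the total on mitochondrial genes. Read depth is unknown, since read counts could not be recovered from the low values. Con replicate 2 stood apart, with a mean correlation of 0.898 with the remaining 5, whereas the others lay between 0.954 and 0.964. The median SD of a tested gene on the log2 scale was 0.43 in Con and 0.20 in GLUP. VIM, the filament of mesenchymal-like cells, lay between 222.2 and 387.2 FPKM, whereas CDH2, the other mesenchymal-like marker, was at most 0.0508 FPKM. The epithelial markers EPCAM and CDH1 were at most 0.124 and 0.0799 FPKM, and KRT8, KRT18 and KRT19 lay between 0.764 and 2.51 FPKM. The leukocyte marker PTPRC was at most 0.0394 FPKM, and of the fibroblast markers COL1A2 lay between 0.123 and 0.443 FPKM and COL1A1 between 2.86 and 6.90 FPKM.

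Promoters were examined first, from RefSeq windows of GRCh38.p14 that run from 250 bases before to 50 bases after each start site. A full window of 300 bases was matched for 41 of the 47 genes, for 5408 of the tested genes and for 27305 genes in all. Searched on both strands, the E2F-type words TTTCCCGC, TTTGGCGC and TTTCGCGC were present in 20 of the 41 windows (48.8%), in 5.70% of those of tested genes and in 2.79% of all windows. The word CCAAT, bound by NF-Y, was present in 24 (58.5%), against 39.5% of tested genes and 35.7% of all. The TEAD-type word GGAATG was present in 4 (9.76%), those of GINS1, ORC6, POLA2 and PRIM1, against 10.7% of tested genes and 14.0% of all. The CHR-type word TTTGAA, common in genes of G2 and mitosis, was present in 1, that of RRM1 (2.44%), against 10.1% and 15.4%. In 37 windows of other replication genes, the comparison list described below, the shares were 27.0%, 56.8%, 16.2% and 8.11% in the same order. Such matches describe the letters of a window and are not evidence of binding, and a window without a match says nothing of the factor.

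**Figure D1:**
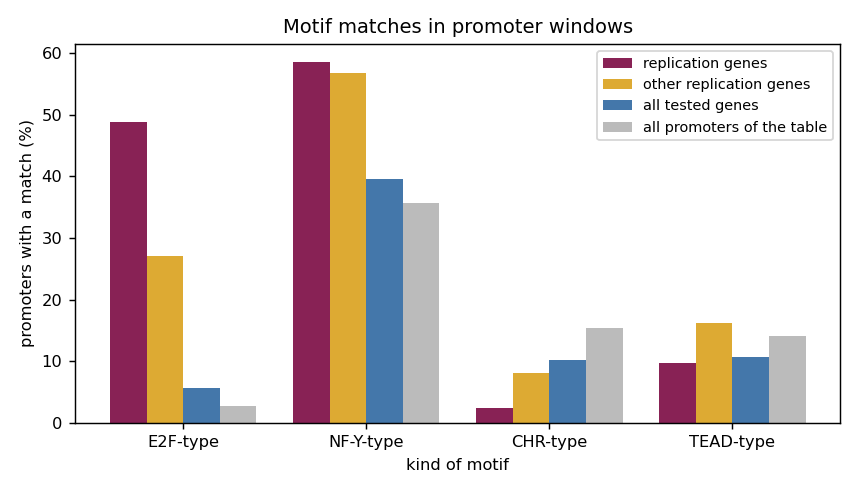
Share of promoter windows (%, vertical axis) that hold at least 1 match to each kind of word (horizontal axis), for the 41 replication genes with a window, 37 other replication genes, 5408 tested genes and all 27305 windows. The E2F-type words stand at 48.8% of the replication genes, 27.0% of the other replication genes and 2.79% of all windows. The TEAD-type word stands at 9.76%, 16.2% and 14.0%.

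The E2F-type words were found with genes of either direction, that is, in 11 of 23 windows of tested genes with a lower mean log2 level in GLUP and in 6 of 13 of those with a higher one. Windows are shown for the genes with a matched window and the smallest p-values, 2 with the lower and 2 with the higher mean in GLUP, so that both directions can be read beside their sequence. Each runs 5′ to 3′ on the strand of its gene, in lower case, with E2F-type, CCAAT and TEAD-type matches on either strand in capitals. TYMS lies at chr18:657403-657702 on the plus strand, ORC3 at chr6:87589885-87590184 on the plus strand, FEN1 at chr11:61792661-61792960 on the plus strand and MCM7 at chr7:100101348-100101647 on the minus strand.
TYMS: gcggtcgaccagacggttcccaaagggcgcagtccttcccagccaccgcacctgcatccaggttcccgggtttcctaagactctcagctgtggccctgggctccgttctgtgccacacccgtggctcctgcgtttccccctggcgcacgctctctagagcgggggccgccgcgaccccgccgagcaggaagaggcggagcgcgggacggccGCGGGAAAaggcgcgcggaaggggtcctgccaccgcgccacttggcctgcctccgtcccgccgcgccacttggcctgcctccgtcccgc
ORC3: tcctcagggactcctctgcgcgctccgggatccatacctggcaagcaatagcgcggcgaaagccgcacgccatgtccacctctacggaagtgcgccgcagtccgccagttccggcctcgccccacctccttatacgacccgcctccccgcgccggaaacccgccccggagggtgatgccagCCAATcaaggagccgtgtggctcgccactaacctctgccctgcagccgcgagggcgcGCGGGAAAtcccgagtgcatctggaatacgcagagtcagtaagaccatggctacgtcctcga
FEN1: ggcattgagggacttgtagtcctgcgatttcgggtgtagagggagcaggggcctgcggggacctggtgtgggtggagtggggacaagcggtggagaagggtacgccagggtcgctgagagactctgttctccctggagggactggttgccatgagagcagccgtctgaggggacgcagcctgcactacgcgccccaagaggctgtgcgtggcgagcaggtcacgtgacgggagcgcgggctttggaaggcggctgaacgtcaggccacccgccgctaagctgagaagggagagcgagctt
MCM7: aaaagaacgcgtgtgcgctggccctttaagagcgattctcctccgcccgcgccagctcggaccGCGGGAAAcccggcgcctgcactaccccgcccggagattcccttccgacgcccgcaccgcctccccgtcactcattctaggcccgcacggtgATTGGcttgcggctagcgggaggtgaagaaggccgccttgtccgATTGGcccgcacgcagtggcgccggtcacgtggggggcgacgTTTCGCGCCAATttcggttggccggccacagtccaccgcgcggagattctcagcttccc

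TYMS, lower in GLUP, held 1 E2F-type match, whose first base lay at −39 from the start site. ORC3, also lower, held an E2F-type match at −12 and a CCAAT at −69. MCM7, higher in GLUP, held E2F-type matches at −187 and −9 and CCAAT words at −95, −51 and −2, the last of which shares a base with the E2F-type match nearest the start. FEN1, higher in GLUP, held none of these words. The word TTTCCCGC, read on the opposite strand, was thus shared by TYMS, ORC3 and MCM7.

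No replication gene passed an adjusted p of 0.05 between GLUP and Con (limma on log2(FPKM + 1), Benjamini-Hochberg over all 7406 genes), and neither did any other gene, a background of 0%. At an unadjusted p under 0.05, 6 of the 42 tested genes had a lower mean log2 level in GLUP (TYMS, ORC3, ORC4, ORC5, GMNN and RFC1) and 3 a higher one (FEN1, MCM7 and TK1). Over all tested genes the shares were 17.2% lower and 4.46% higher, and those of the replication genes were 14.3% and 7.14%. Mean levels were lower in GLUP for 26 genes and higher for 16, and the median log2 fold change was −0.17, against −0.23 over all tested genes, of which 65.5% were lower. Since the whole table leaned lower by that amount, the counts and the main changes are also given after the libraries were rescaled by a trimmed mean of log ratios, which put the median of all genes at −0.01.

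After that rescaling, 16 genes were lower and 26 higher, with a median of 0.08. Those at an unadjusted p under 0.05 were then 3 lower (TYMS, ORC3 and ORC5), against 8.76% of all genes, and 7 higher (TK1, FEN1, MCM7, MCM5, POLD1, POLD2 and LIG1), against 10.3%. GMNN (−0.59), ORC4 (−0.67) and RFC1 (−0.50) kept a lower mean but no longer had an unadjusted p under 0.05. Rescaling turned the sign of 10 genes (ORC6, MCM4, GINS1, GINS2, GINS3, PCNA, RFC5, PRIM1, POLE2 and RPA3) and so moved the list from mostly lower to mostly higher, while the log2 fold changes of TYMS, ORC3, ORC5, FEN1, MCM7 and TK1 kept their sign.

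The libraries of the 2 groups did not overlap for 18 of the 42 genes (42.9%), against 30.3% of all tested genes. In 13 of them every GLUP library was below every Con library (31.0%, against 22.7% of all genes), namely ORC2, ORC3, ORC5, GMNN, MCM3, MCM6, MCM10, GINS2, RFC1, RFC4, RPA1, RRM1 and TYMS. In the other 5 every GLUP library was above (11.9%, against 7.55%), namely MCM7, POLD1, FEN1, LIG1 and TK1. With 3 libraries against 3, an exact permutation test can give no p below 0.1, and that is the value it gave for each of these genes.

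**Figure D2:**
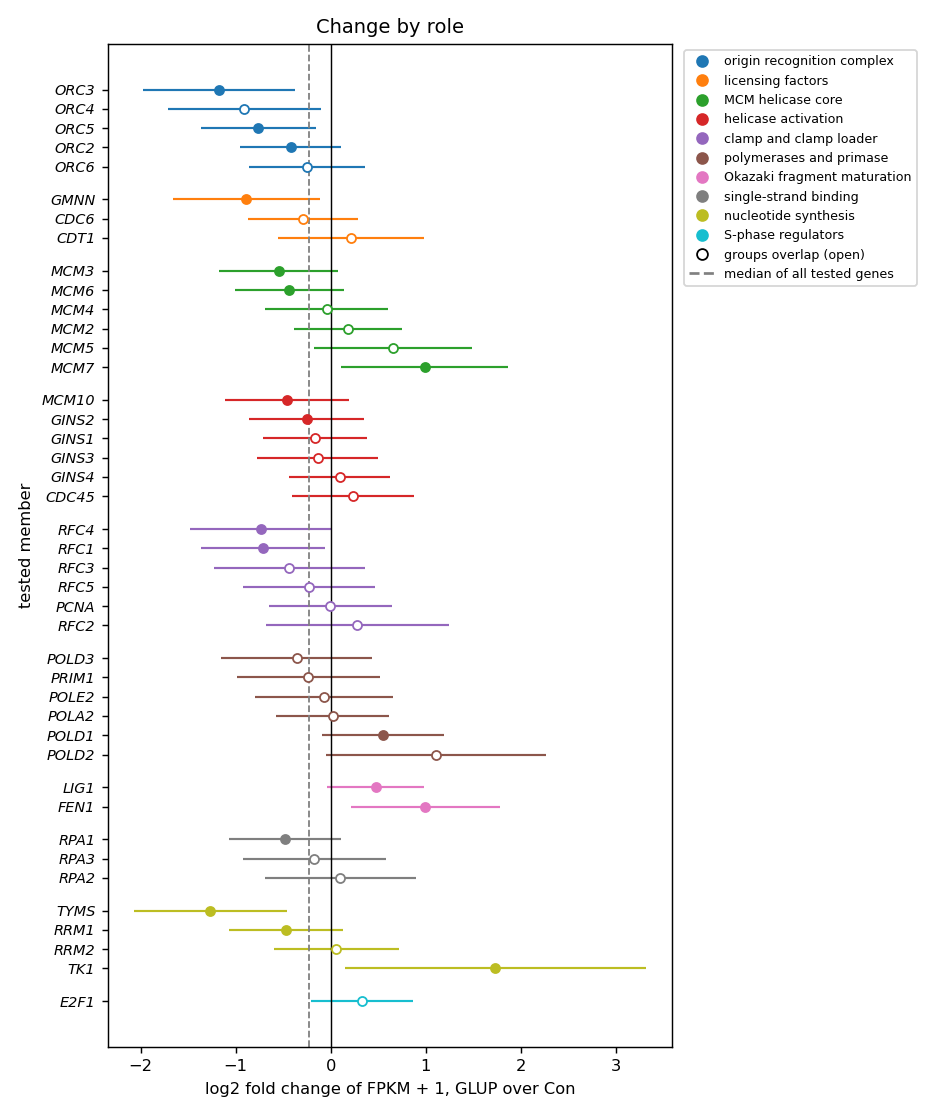
Log2 fold change of FPKM + 1, GLUP over Con, with its 95% interval from limma (horizontal axis) for each of the 42 tested genes, grouped and coloured by role (vertical axis). Filled points mark genes whose groups do not overlap, open points those whose groups do, and the dashed line is the median of all tested genes at −0.23. The 5 ORC genes lie left of 0 while FEN1 and LIG1 lie right of it.

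The origin recognition complex marks the sites where replication can begin, and its 5 tested genes all had lower means in GLUP, with a median log2 fold change of −0.76. The shared direction depended on the scale: the median was −0.54 after rescaling, where ORC6 turned to 0.02, and −0.23 after removal of a trend with GC content and length, where ORC2 and ORC6 both turned to 0.09. ORC3 (chr6:88299785-88377171, plus strand, GRCh37), a core subunit and the highest of the group, was at 19.1, 25.1 and 10.4 FPKM in Con (replicates 1 to 3, in this order throughout) and 5.52, 8.71 and 7.21 FPKM in GLUP. All GLUP libraries lay below all Con libraries, with Con replicate 3 nearest to them. The means were 18.2 ± 7.36 and 7.15 ± 1.60 FPKM (SD, n = 3 each). The log2 fold change was −1.18 (SE 0.36, limma adjusted p = 0.194), and −0.90 after rescaling.

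ORC4, which belongs to the ATPase core of the complex, was at 6.6, 8.06 and 2.91 FPKM in Con and 2.09, 3.54 and 1.89 FPKM in GLUP. Its groups overlapped, since Con replicate 3 lay within the GLUP range. This was a log2 fold change of −0.91 (SE 0.36, limma adjusted p = 0.202). ORC4 shares its span with ACVR2A on the other strand, and whether counting used strand is not stated, so that its level is uncertain.

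ORC5, another core subunit, was at 5.14, 3.71 and 2.64 FPKM in Con and 1.53, 1.92 and 1.92 FPKM in GLUP, with no overlap. For ORC5 the log2 fold change was −0.76 (SE 0.27, limma adjusted p = 0.198), and −0.54 after rescaling. ORC2 was at 2.04, 1.24 and 0.956 FPKM in Con and 0.932, 0.876 and 0.529 FPKM in GLUP, groups that only just missed each other. ORC6, the subunit least tightly held in the complex, differed least, with means of 12.3 and 10.1 FPKM and a log2 fold change of −0.25, close to that of all genes. ORC1, which opens the assembly of the complex, was below the minimum, at 0.945, 0.394 and 0.884 FPKM in Con and 1.11, 0.849 and 0.733 FPKM in GLUP, without the lower level of ORC3, ORC4 and ORC5.

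Among the licensing factors, GMNN (chr6:24775159-24786327, plus strand) was by far the highest. It was at 159.3, 181.9 and 84.1 FPKM in Con and 69.5, 75.8 and 71.5 FPKM in GLUP. The GLUP libraries were close together and below all Con libraries, while Con replicate 3 lay nearer to them than to the other Con libraries. The means were 141.8 ± 51.2 and 72.2 ± 3.22 FPKM (SD, n = 3 each), and the log2 fold change was −0.89 (SE 0.35), with a limma adjusted p = 0.202. CDC6, which completes the loading platform, had means of 3.26 and 2.42 FPKM (log2 fold change −0.29). CDT1, which brings the MCM ring and is the protein that geminin restrains, had means of 3.70 and 4.14 FPKM (0.21), and both overlapped between groups. The higher mean of CDT1 rested on Con replicate 2, without which its log2 fold change was −0.14, and it was −0.06 without the GC content and length trend.

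The 6 genes of the MCM ring did not share a direction, although their proteins form 1 complex: 3 had lower and 3 higher means. The split depended on the scale, as MCM4 turned to 0.22 after rescaling. Without the GC content and length trend MCM4 was at 0.24 and MCM6 at 0.01, and MCM3 alone stayed lower, at −0.47. MCM7 (chr7:99689856-99699563, minus strand) was at 18.5, 7.58 and 20.6 FPKM in Con and 36.6, 28.4 and 24.4 FPKM in GLUP. Every GLUP library was above every Con library, and Con replicate 2 was the lowest. The means were 15.6 ± 7.0 and 29.8 ± 6.22 FPKM (SD, n = 3 each), and the log2 fold change was 0.99 (SE 0.39, limma adjusted p = 0.203) and 1.27 after rescaling. Without Con replicate 2 it was 0.57. AP4M1 overlaps MCM7 on the other strand, so that its level is uncertain in the same way as that of ORC4.

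MCM3 was the opposite case, at 20.7, 22.6 and 17.4 FPKM in Con and 15.1, 13.3 and 12.2 FPKM in GLUP, without overlap and with a log2 fold change of −0.55 (SE 0.28, limma adjusted p = 0.264). MCM5 was at 6.16, 2.69 and 7.45 FPKM in Con and 11.1, 9.11 and 6.10 FPKM in GLUP, with overlap and a log2 fold change of 0.65 (limma adjusted p = 0.298) that was 0.30 without Con replicate 2. MCM6 had means of 4.83 and 3.27 FPKM and no overlap (−0.44), whereas MCM2 (1.57 and 1.99 FPKM, 0.18) and MCM4 (8.51 and 8.29 FPKM, −0.05) overlapped. The ratio of MCM7 to MCM3, chosen after these values were seen, was 0.894, 0.335 and 1.18 in Con and 2.43, 2.14 and 2.01 in GLUP. MCM7 was therefore the higher of the pair in all GLUP libraries and in Con replicate 3 alone among the controls. That the ratio separated the groups follows from both genes lying without overlap in opposite directions.

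Of the 6 genes that switch the helicase on, none had an unadjusted p under 0.05. GINS2, the highest of them, was at 25.2, 25.5 and 22.9 FPKM in Con and 19.9, 21.8 and 19.5 FPKM in GLUP. The groups did not overlap and the spread was small, yet the log2 fold change of −0.25 (SE 0.27, limma adjusted p = 0.559) was close to that of the median gene and came to 0.03 after rescaling. GINS2 overlaps GSE1 on the other strand. MCM10, which helps the helicase start, had means of 4.56 and 3.03 FPKM, also without overlap (−0.46). CDC45, the cofactor of the working helicase, had means of 4.43 and 5.27 FPKM (0.24, and 0.02 without Con replicate 2). Among the remaining GINS subunits the means in Con and GLUP were 2.29 and 1.90 FPKM for GINS1 (−0.16), 5.21 and 4.65 FPKM for GINS3 (−0.14) and 1.85 and 2.04 FPKM for GINS4 (0.09), all with overlap.

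PCNA (chr20:5095599-5107272, minus strand), the sliding clamp and a common mark of dividing cells, had nearly equal means. It was at 74.3, 64.6 and 51.6 FPKM in Con and 59.1, 62.2 and 66.8 FPKM in GLUP. The GLUP libraries lay within the Con range, and the means were 63.5 ± 11.4 and 62.7 ± 3.89 FPKM (SD, n = 3 each). The limma interval of the log2 fold change ran from −0.65 to 0.64, so that a change of that size could not be told from none at this spread. The estimate itself was below 0.01 in size and became 0.29 after rescaling.

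Of the 5 genes of the clamp loader, 4 had lower means and RFC2 a higher one. Without the GC content and length trend, RFC3 (0.18) and RFC5 (0.20) turned higher, while RFC1 (−0.24) and RFC4 (−0.30) stayed lower. RFC1, the large subunit, was at 3.8, 4.92 and 1.99 FPKM in Con and 1.74, 1.78 and 1.53 FPKM in GLUP, below all Con libraries, with a log2 fold change of −0.71 (limma adjusted p = 0.208). RFC4 was at 45.4, 65.3 and 30.7 FPKM in Con and 27.5, 26.9 and 25.7 FPKM in GLUP, also without overlap (−0.73, limma adjusted p = 0.236). RFC4 shares its span with EIF4A2 on the other strand. RFC2 was at 80.1, 23.9 and 66.9 FPKM in Con and 65.6, 59.6 and 60.0 FPKM in GLUP, with Con replicate 2 far below the other controls. Its log2 fold change was 0.28, but −0.24 without that library, so that its direction rested on it. RFC3, with means of 8.34 and 5.50 FPKM (−0.44), and RFC5, with means of 4.55 and 3.58 FPKM (−0.23), overlapped, and RFC5 shares its span with WSB2 on the other strand.

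The DNA polymerases and the primase were mostly without a clear difference. POLD2 (chr7:44154230-44163957, minus strand), an accessory subunit of polymerase delta and the highest of the group, was at 56.8, 19.0 and 82.2 FPKM in Con and 144.5, 97.1 and 66.4 FPKM in GLUP. The ranges overlapped, as Con replicate 3 was above GLUP replicate 3. The means were 52.6 ± 31.8 and 102.7 ± 39.4 FPKM (SD, n = 3 each). For POLD2 the log2 fold change was 1.11 (SE 0.52, limma adjusted p = 0.242) and 0.51 without Con replicate 2.

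POLD1, the catalytic subunit of the same polymerase, was at 1.74, 0.816 and 2.58 FPKM in Con and 2.83, 2.71 and 2.90 FPKM in GLUP, with no overlap but a narrow gap (0.55, limma adjusted p = 0.27, and 0.28 without Con replicate 2). POLD3, the third subunit on the list, had means of 6.42 and 4.66 FPKM with overlap (−0.36). PRIM1, the catalytic primase subunit, had means of 15.7 and 12.8 FPKM (−0.24), and its reads may be shared with NACA, which overlaps it on the same strand. PRIM2, its partner, was below the minimum at 1.17, 0.950 and 1.43 FPKM in Con and 0.702, 0.734 and 0.502 FPKM in GLUP, lower without overlap. POLA2 (2.89 and 2.96 FPKM, 0.02) and POLE2 (6.53 and 6.07 FPKM, −0.07) overlapped, and POLA1 and POLE were below the minimum, with means of 0.511 and 0.402 FPKM and of 0.353 and 0.433 FPKM.

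Both genes that finish the lagging strand had higher means in GLUP. FEN1 (chr11:61560383-61564710, plus strand), the flap nuclease that trims the fragments, was at 10.1, 4.72 and 11.7 FPKM in Con and 19.6, 16.9 and 16.3 FPKM in GLUP. All GLUP libraries were above all Con libraries, and the means were 8.82 ± 3.64 and 17.6 ± 1.77 FPKM (SD, n = 3 each). The log2 fold change was 0.99 (SE 0.35, limma adjusted p = 0.198), 1.26 after rescaling and 0.64 without Con replicate 2. LIG1, the ligase that seals them, was at 1.06, 0.879 and 1.65 FPKM in Con and 2.15, 2.04 and 1.85 FPKM in GLUP, again without overlap, with a log2 fold change of 0.47 (SE 0.23, limma adjusted p = 0.254). That of LIG1 was 0.37 without Con replicate 2 and 0.29 without the GC content and length trend.

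The genes of the single-strand binding proteins did not share a direction. RPA3, the smallest subunit and the highest of all 47 genes in FPKM, was at 210.7, 258.0 and 171.2 FPKM in Con and 153.9, 151.0 and 278.7 FPKM in GLUP. GLUP replicate 3 was above all Con libraries while the other GLUP libraries were below them, and the log2 fold change was −0.17 (SE 0.34, limma adjusted p = 0.755) and 0.12 after rescaling. Without GLUP replicate 3 it was −0.46, and without GLUP replicate 2 it was −0.0221. RPA3 overlaps UMAD1 on the other strand. RPA1, the large subunit, which overlaps the gene ENSG00000108958 on the other strand, had means of 3.86 and 2.47 FPKM without overlap (−0.48), and RPA2 had means of 32.1 and 32.6 FPKM with overlap (0.10).

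The genes of nucleotide supply held the lowest and the highest log2 fold change of the list, in a pair of enzymes that make the same product. TYMS (chr18:657653-673578, plus strand), which makes dTMP from dUMP, was at 18.8, 21.4 and 8.34 FPKM in Con and 5.58, 6.03 and 5.39 FPKM in GLUP. The GLUP libraries were tightly grouped below all Con libraries, with Con replicate 3 nearest. The means were 16.2 ± 6.90 and 5.67 ± 0.330 FPKM (SD, n = 3 each), a ratio of 2.85. The log2 fold change was −1.27 (SE 0.36, limma adjusted p = 0.194), −0.997 after rescaling and −1.03 without Con replicate 2. ENOSF1 and TYMSOS overlap TYMS on the other strand, so that its level is uncertain.

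TK1 (chr17:76170172-76183314, minus strand), which makes dTMP from thymidine by salvage, was at 19.2, 2.07 and 29.0 FPKM in Con and 49.6, 42.3 and 30.1 FPKM in GLUP. The groups did not overlap, but Con replicate 3 and GLUP replicate 3 were nearly level, and Con replicate 2 lay far below the rest. The means were 16.8 ± 13.6 and 40.7 ± 9.86 FPKM (SD, n = 3 each). For TK1 the log2 fold change was 1.73 (SE 0.71, limma adjusted p = 0.207) and was 0.73 without Con replicate 2, so that 1 control library held much of it.

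The ratio of TK1 to TYMS, chosen after both were seen, was 1.02, 0.0968 and 3.48 in Con and 8.90, 7.003 and 5.58 in GLUP. It was higher in every GLUP library than in any Con library. That follows from both genes lying without overlap in opposite directions, and adds nothing to their separate values. RRM1, the large subunit of ribonucleotide reductase, was at 9.93, 9.23 and 7.73 FPKM in Con and 6.30, 5.43 and 6.81 FPKM in GLUP, without overlap (−0.47, limma adjusted p = 0.297). RRM2, the small subunit that is made in S phase, had means of 22.5 and 23.2 FPKM with overlap (0.06). The subunits were thus uneven, with a ratio of RRM2 to RRM1, also chosen after the values were seen, of 2.80, 2.17 and 2.52 in Con and 4.27, 4.01 and 3.08 in GLUP. Without the GC content and length trend, RRM1 was at −0.003 and RRM2 at 0.54.

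Of the S-phase regulators, E2F1, itself an activator of many of these genes, was at 1.33, 0.372 and 0.900 FPKM in Con and 1.26, 1.36 and 1.23 FPKM in GLUP. The ranges overlapped, with a log2 fold change of 0.32 (SE 0.24, limma adjusted p = 0.403), and Con replicate 2 was again the lowest. It was 0.12 without that library and 0.05 without the GC content and length trend. UHRF1, which keeps DNA methylation in step with replication, was below the minimum, with means of 0.799 and 0.768 FPKM.

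**Figure D3:**
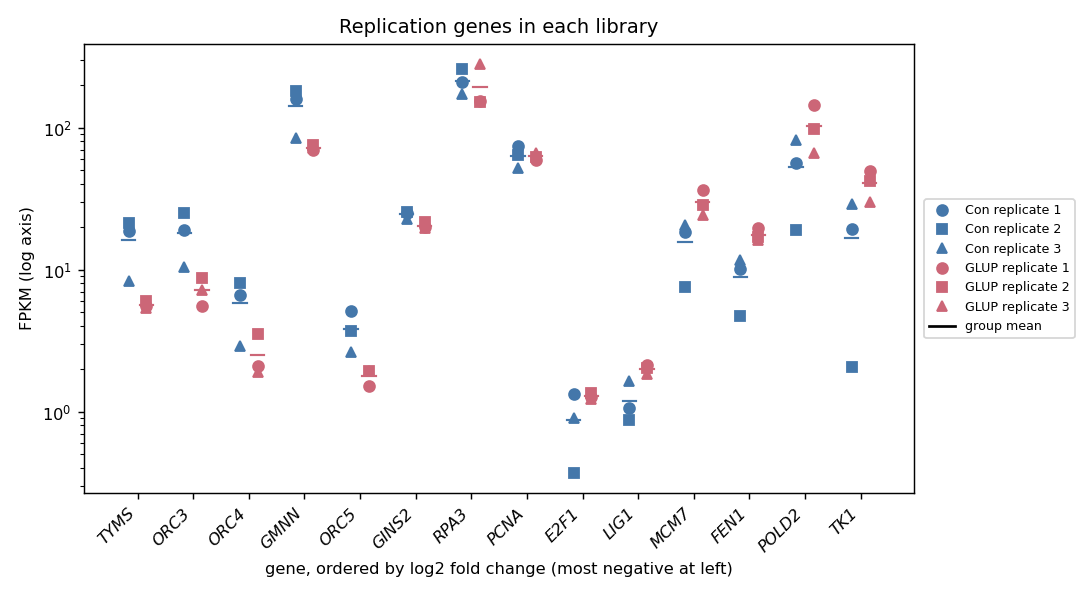
FPKM (vertical axis, log scale) of 14 replication genes in each of the 6 libraries, Con in blue and GLUP in red, with the replicate shown by the shape of the point and the group mean by a bar. The genes run from the most negative log2 fold change, TYMS, to the most positive, TK1. Con replicate 3 (triangle) lies nearest to the GLUP points for most genes, and Con replicate 2 (square) is far below the rest for TK1.

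The Con libraries were not equal in this comparison. Con replicate 3 was the control nearest to the GLUP mean for 35 of the 42 genes (83.3%), and for 67.3% of all tested genes. Without it, 18.5% of all tested genes passed an adjusted p of 0.05 (16.3% lower and 2.2% higher), and so did 8 of the 42 replication genes. Those were TYMS, ORC3, ORC4, ORC5, GMNN, RFC1 and RFC4 with lower levels in GLUP (log2 fold changes from −1.66 for TYMS to −0.95 for ORC5 among the genes described in full) and FEN1 with a higher one (1.22, limma adjusted p = 0.0480). At an unadjusted p under 0.05 there were then 13 lower, against 31.5% of all genes, and 7 higher, against 8.86%. The sign turned for GINS4 (−0.02) and RRM2 (−0.03).

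Without Con replicate 2 instead, 0.0405% of all tested genes passed the adjusted threshold and none of the 42 did. At an unadjusted p under 0.05, 4 were lower (TYMS, ORC3, ORC5 and GMNN), against 14.8% of all genes, and 3 were higher (FEN1, MCM7 and TK1), against 3.93%. The sign turned for 7 of the 42 genes (CDT1, PCNA, RFC2, POLA2, POLE2, RPA2 and RRM2). Nothing in the labels sets any control library apart, and all 6 libraries stand in every value that names none left out.

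The direction of the replication genes ran with the GC content of their transcripts. Of the 14 genes with a GC content of 50% or more, 13 had a higher mean in GLUP (median log2 fold change 0.40), whereas of the 28 below 50%, 25 had a lower one (median −0.33). MCM3 was the gene with a high GC content and a lower mean, and RPA2, GINS4 and RRM2 were those with a low GC content and a higher mean. Over all tested genes the medians were 0.15 and −0.42. Spearman's rho between log2 fold change and GC content was 0.70 over the 42 genes, as a description, since all points share the same libraries, and 0.55 over 7388 tested genes with a GC content. ORC3 had a GC content of 39.2%, TYMS 48.9%, FEN1 52.2%, MCM7 55.8% and TK1 60.3%.

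The same relation was present between single libraries. The deviation of a gene from its mean over the 6 libraries had a Spearman's rho with GC content, over all tested genes, of −0.34 in Con replicate 1, −0.59 in Con replicate 2 and 0.45 in Con replicate 3, and of 0.43, 0.54 and 0.34 in the GLUP libraries. Con replicate 3 thus had the sign of the GLUP libraries. The part of library GC content in the differences between GLUP and Con was not tested, and it cannot be told apart from treatment where it runs with the groups.

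After a smooth trend with GC content and length was taken out of each library, 0.0135% of all genes passed an adjusted p of 0.05 and none of the replication genes did. Of the 42 genes, 13 were then lower and 29 higher, with a median log2 fold change of 0.11, against 0.01 over all genes. The sign turned for 15 of the 42 genes (ORC2, ORC6, CDC6, CDT1, MCM4, MCM6, GINS1, GINS3, PCNA, RFC3, RFC5, PRIM1, POLD3, POLE2 and RPA3). At an unadjusted p under 0.05, 3 were lower (TYMS, ORC3 and MCM3), against 8.96% of all genes, and 6 were higher (FEN1, MCM7, TK1, PCNA, POLE2 and RRM2), against 9.58%. FEN1 was at 0.96, MCM7 at 0.81, TK1 at 1.33, TYMS at −1.10 and ORC3 at −0.60, whereas ORC4 (−0.35), ORC5 (−0.23), GMNN (−0.44) and RFC1 (−0.24) no longer had a p under 0.05.

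**Figure D4:**
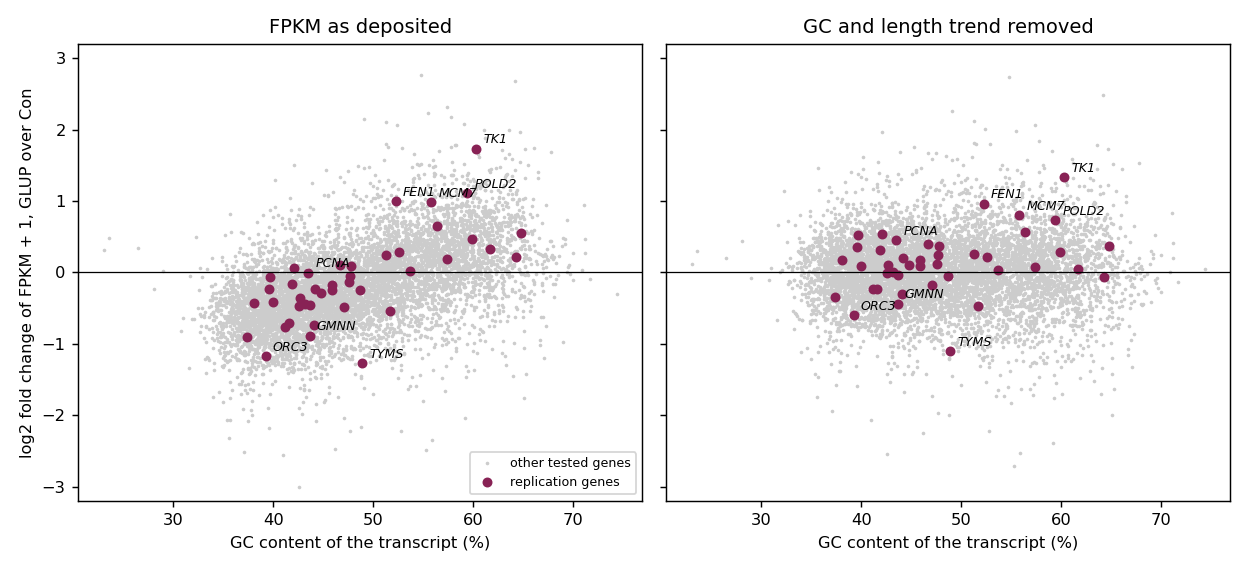
Log2 fold change of FPKM + 1, GLUP over Con (vertical axis), against the GC content of the transcript in percent (horizontal axis), as deposited at left and after a trend with GC content and length was removed at right. Dark points are the 42 replication genes and grey points the other tested genes. At left 25 of the 28 replication genes under 50% GC lie below 0, and 13 of the 14 others lie above it. TYMS is the lowest, at 48.9% GC, and TK1 the highest, at 60.3% GC. At right TYMS and ORC3 stay below 0 while FEN1, MCM7 and TK1 stay above it.

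A further 48 replication genes outside the list were taken for comparison, and 32 of them were tested. No gene among them passed an adjusted p of 0.05, and 23 had lower and 9 higher means, with a median log2 fold change of −0.25. At an unadjusted p under 0.05, 4 were lower (ASF1A, RNASEH2B and CCNE2 among them) and 1 was higher (ASF1B), beside the same backgrounds of 17.2% and 4.46%. The groups did not overlap for 5 lower and 4 higher genes of the 32 (15.6% and 12.5%, against 22.7% and 7.55% of all tested genes).

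The paired chaperones that hand histones to new DNA lay on opposite sides of 0. ASF1A was at 74.2, 218.3 and 36.2 FPKM in Con and 19.0, 19.998 and 18.6 FPKM in GLUP, below all Con libraries, with Con replicate 2 far above the rest. Its log2 fold change was −2.08 (SE 0.55, limma adjusted p = 0.194), and −1.39 without Con replicate 2. ASF1B, its paralog tied to dividing cells, was at 13.6, 10.2 and 13.6 FPKM in Con and 22.6, 21.7 and 17.4 FPKM in GLUP, above all Con libraries (0.68, limma adjusted p = 0.211).

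POLE3, a histone-fold subunit of polymerase epsilon, was at 11.4, 9.92 and 11.5 FPKM in Con and 17.5, 14.4 and 20.5 FPKM in GLUP, without overlap (0.62, limma adjusted p = 0.236). POLE2, of the same polymerase, had a log2 fold change of −0.07. After rescaling POLE3 was at 0.89 and POLE2 at 0.19, and without the GC content and length trend they were at 0.93 and 0.52.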

How the data were processed

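The authors deposited 1 table of FPKM values for 6 libraries. The submitters' processing notes name HISAT2, Cufflinks, RSEM and GRCh38.p10, without roles, whereas 53057 of its 62492 gene identifiers carry the suffix of a GENCODE annotation lifted to GRCh37. Gene coordinates, length and GC content came from GENCODE lifted to GRCh37, and promoters from RefSeq on GRCh38.p14. Samples were grouped by title.

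Genes averaging 1 FPKM or more were tested on log2(FPKM + 1) with limma 3.58.1 in R 4.3.3 (lmFit, eBayes with trend, two-sided), with Benjamini-Hochberg adjustment over all of them and no covariates. The pseudocount understates the change of low genes. Genes below the minimum were fitted in the same way with no minimum. FPKM is relative to the total of its library, so that abundant genes move the others. For rescaling, the 30% most extreme log ratios and 5% most extreme levels were trimmed at each end. The GC content and length trend was a loess curve with a span of 0.5. The limma fit was tested on simulated data that held no differences in scale or GC content between libraries.

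The genes, lists and alternatives were chosen with earlier results of these data known. Genes described in full were the highest of each role, the 5 lower and 5 higher ones of smallest p, and 4 of the comparison list by the same measure, of which 1 is not reported here.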

Additional observations from a re-analysis of the deposited data

How the results depend on the processing

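Read depth is unknown, and 3 libraries a group, with a wider spread in Con, limit the precision. The 14 alternatives were another pseudocount (0.1), no minimum, a minimum of 5 FPKM, rescaling by a trimmed mean of log ratios, removal of the GC content and length trend, a replicate block, both of the latter together, eBayes without trend, and leaving out each library. Of the 248 values of the 18 genes chosen for full description, 229 kept their direction and side of the adjusted threshold, 8 passed it (all without Con replicate 3) and 11 turned their sign. The causes of these differences were not tested.

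Genes that passed an adjusted p of 0.05, 0 in limma with all libraries (1276 lower and 330 higher at an unadjusted p under 0.05), numbered 1 with a minimum of 5 FPKM, 1 without the GC content and length trend, 1 with the replicate block, 1 with both and 1 without the eBayes trend, and from 0 to 1367 when a library was left out. Replication genes among them ran from 0 to 8, the latter without Con replicate 3. Replication genes lower at an unadjusted p under 0.05 numbered 3 after rescaling, 3 without the GC content and length trend, 2 without it and with the replicate block, and from 2 to 13 when a library was left out. Those higher numbered 7, 6 and 3 in the same order, and from 0 to 7. Over all tested genes the shares lower and higher were 8.76% and 10.3% after rescaling, 8.96% and 9.58% without the GC content and length trend, and 8.35% and 9.12% with the block as well. When a library was left out, these shares ran from 8.30% to 31.5% lower and from 2.16% to 8.86% higher. The median log2 fold change of the tested replication genes was 0.0779 after rescaling and 0.11 without the GC content and length trend, with or without the block. It ran from −0.31 to −0.0617 when a library was left out. The median of the other replication genes was −0.0403, 0.16 and 0.16, and from −0.39 to −0.12, in the same order. Groups did not overlap for 10 of the 23 replication genes with a minimum of 5 FPKM, which tests fewer genes. The share over all genes was not counted at that minimum, so that the 10 cannot be set against a background.

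GINS2 turned to 0.0328 after rescaling. PCNA turned to 0.29 after rescaling and to 0.45 without the GC content and length trend, with or without the block, and ran from −0.14 to 0.12 when a library was left out. RPA3 turned to 0.12 after rescaling and to 0.17 without the trend, with or without the block, and ran from −0.46 to −0.0221 when a library was left out.

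Same-numbered libraries had correlations of 0.13, −0.01 and −0.17 in their deviations from the group means. With 3 libraries a group, such values cannot settle whether the replicate numbers pair the libraries, and the labels do not say. With the replicate block, 6 replication genes were lower and 4 higher at an unadjusted p under 0.05, against 15.6% and 4.79% of all tested genes, and none passed the adjusted threshold.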
